A study of Mus musculus with 6 samples.

Results

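The 35 genes described here are markers and working parts of macrophages, taken by name from the 26018 genes of the deposited table, and every name matched 1 row. They were sorted by role into 3 chains of complement C1q, 6 lineage and pan-macrophage genes, 9 genes of resident macrophages, 8 genes of monocyte-derived and inflammatory macrophages, 4 Fc receptor and adaptor genes and 5 genes of the lysosome, lipid handling and antigen processing. RNA was sequenced from the uteri of 3 conditional knockout (cKO) female mice, labelled Tcf21d/d, and of 3 control females, labelled Tcf21f/f. All 6 animals were 6 weeks old and untreated, the groups were matched for body weight, and each library came from 1 animal. The controls carry floxed Tcf21 alleles and the cKO animals deleted ones, and neither the Cre driver nor the deleted exon is given in the sources used here. TCF21 binds DNA through a basic helix-loop-helix domain and acts in mesenchymal cells, and the study asked which genes it may act on in uterine development. Values are normalised read counts, that is, reads per gene divided by 1 size factor per library. All 35 genes passed the filter on low reads, and the lowest count of any of them in a library was 6 reads.

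Macrophages are phagocytes that arise from embryonic progenitors or from blood monocytes, under the transcription factor PU.1 and the growth factor receptor CSF1R. They engulf dying cells, make complement C1q, bind antibody-coated particles through Fc receptors, and sense microbes through CD14 and C-type lectins. In the uterus they lie in the stroma and between muscle layers, and they clear tissue after the cycle and after birth. Resident cells are often told by MRC1, CD163, LYVE1 and FOLR2, while lipid-laden cells are rich in GPNMB, TREM2, cathepsins and apolipoprotein E.

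The libraries held 14584450 to 16579573 reads on genes. Tcf21 was at 26.0, 0 and 0 in the cKO replicates, against 341, 152 and 144 in the control replicates, with a limma adjusted p of 0.0765. Genes of the uterine epithelium and stroma took a lower mean share in the cKO libraries, at 0.0210, 0.0111 and 0.00999% of reads in cKO replicates 1 to 3, against 0.0846, 0.0466 and 0.0178% in control replicates 1 to 3. Limma called none of the 10 tested, 5 were lower at an unadjusted p under 0.05, DESeq2 called 6 lower, and all 10 had a negative fold change on the log2 scale, with a median of -1.62. The progesterone receptor gene Pgr was at 755, 394 and 389 in cKO and 1996, 1631 and 727 in control libraries, while the gland factor gene Foxa2 was listed at 0 in all 3 cKO libraries, against 89.0, 3.59 and 0 in the controls. Genes of skeletal muscle, a tissue the label does not name, took 6.00 to 8.89% of reads in cKO libraries and 2.94 to 5.80% in control libraries. Limma called none of its 12 tested genes, 10 were higher at an unadjusted p under 0.05 and DESeq2 called 6 higher. Smooth muscle genes took 0.495 to 0.669% of reads in cKO libraries and 1.21 to 1.71% in control libraries, and 9 of 10 fell in the cKO animals by limma. Control replicate 1 held hepatocyte genes at 1.61% of its reads, against 0.0114 to 0.0313% elsewhere. Mitochondrial genes took 23.8% of reads in control replicate 1, against 8.10 to 13.7% elsewhere, which leaves a smaller share for its other genes. The cause of that mitochondrial share was not tested. Control replicate 2 held intestinal epithelial genes at 0.00764%, against at most 0.000599% elsewhere. The part that these other tissues and cell types play in the macrophage values was not tested, except where a value without such a library is given. In bulk tissue, more macrophages and more RNA per macrophage cannot be told apart.

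Most macrophage genes had higher values in the cKO uteri, and 3 of the 35 passed the test. They were Pf4, a platelet-type chemokine that tissue macrophages also make, Fcer1g, the signalling chain shared by Fc receptors, and Card9, an adaptor that carries signals from C-type lectins to NF-kappaB. These 3 rose, none fell and 32 did not pass (limma, Benjamini-Hochberg adjusted p under 0.05 over 16314 genes). Among all genes tested, 0.276% rose and 0.889% fell. For decreases among the 35, the count at an unadjusted p under 0.05 was also 0, as were the counts by DESeq2 and by edgeR, while 7.6% of all genes tested were lower at that p. At an unadjusted p under 0.05 there were 15 members higher, against 6.11% of all genes tested. The same 15 had all 3 cKO libraries above all 3 controls, a separation seen in 9.04% of all genes tested. No member had its 3 cKO libraries below the controls (10.5% of all genes tested), and 20 members overlapped between the groups. The fold change on the log2 scale, cKO over control, is called the log2 ratio here. Its median over the members was 0.62, against 0.0020 over all genes tested, and 33 of the 35 had a positive value by limma, against 50.3% of all genes tested (28 by DESeq2 and by edgeR). Members are expressed by the same cells, so their counts are not independent of each other. The 35 genes together took 0.809, 0.692 and 0.772% of reads in cKO replicates 1 to 3. In control replicates 1 to 3 they took 0.849, 0.823 and 0.414%, so the summed share overlapped between the groups. That sum is weighted to abundant members, and Apoe alone made 108593 of the 151058 summed normalised counts in control replicate 1.

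**Figure D1:**
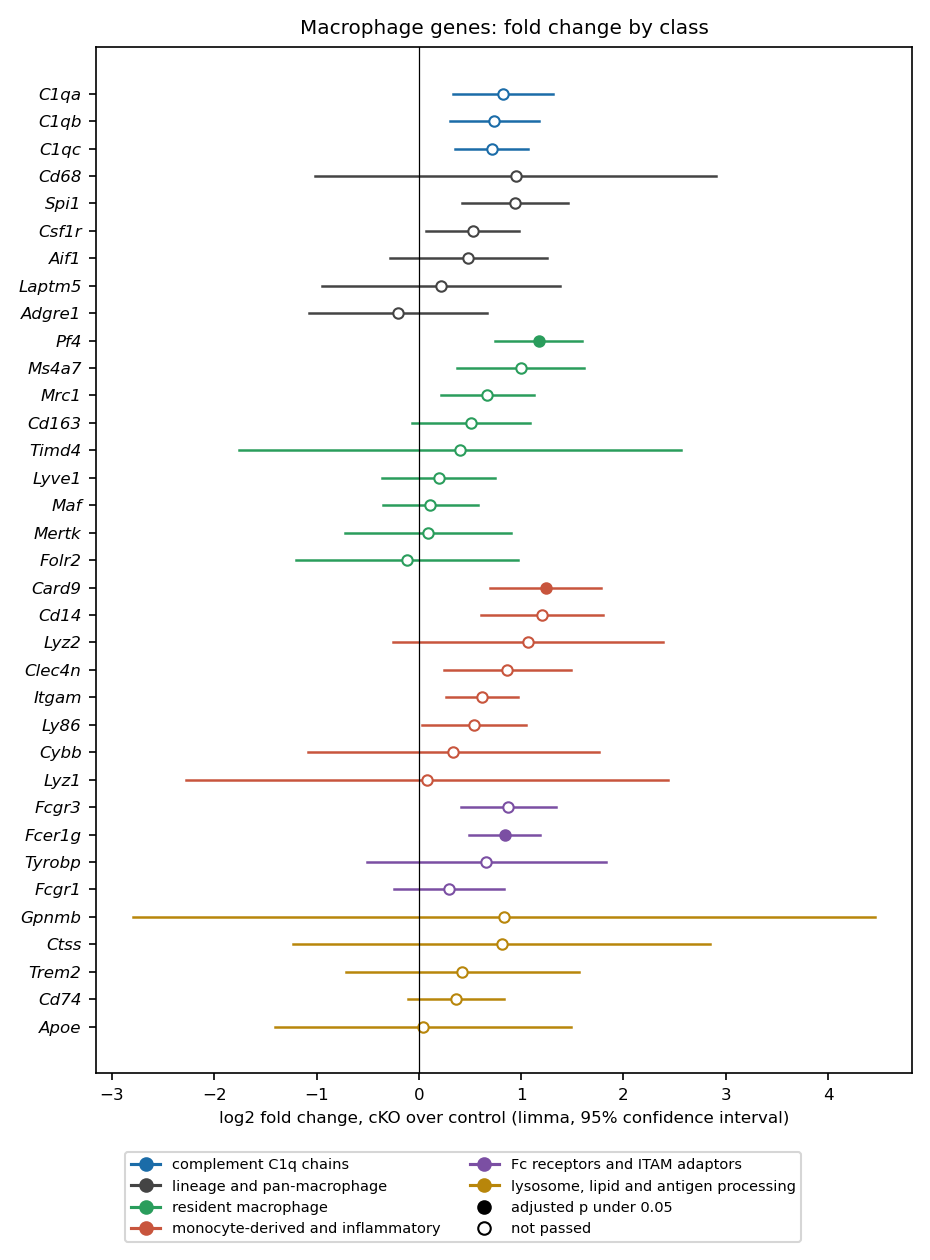
Log2 ratio of each macrophage gene, cKO over control, with its 95% confidence interval from limma (x axis), for 35 genes grouped by role (y axis). Filled points passed an adjusted p under 0.05, which were Pf4, Card9 and Fcer1g, and the widest intervals belong to Gpnmb and Lyz1.

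Pf4 was at 1582, 1250.1 and 1592 in the cKO replicates, against 522, 732 and 717 in the control replicates. The lowest cKO library lay above the highest control by a wide margin. Its log2 ratio was 1.17 ± 0.19 (SE, n = 3 per group) with a limma adjusted p of 0.024. Platelets are the classical source of Pf4, and genes of megakaryocytes and platelets took 0.00287 to 0.00390% of reads in cKO libraries and 0.00210 to 0.00419% in control libraries, with the platelet chemokine gene Ppbp at 40.0, 52.7 and 86.2 in cKO and 21.9, 94.4 and 31.1 in control libraries. Gp9, a platelet surface glycoprotein gene, was listed at 0 in cKO replicate 1 and in control replicate 3 and at no more than 10.7 in any library. Of the 4 tested genes of that list, limma and DESeq2 called 0, and 0 had an unadjusted limma p under 0.05. All 4 had a positive log2 ratio, with a median of 0.45. The part of platelets in the Pf4 values was not tested.

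Fcer1g was at 2611, 2291 and 2057 in the cKO replicates, against 1313, 1302 and 1259.7 in the control replicates. The controls lay close together and every cKO library stood above them. Its log2 ratio was 0.84 ± 0.15 (SE, n = 3 per group) with a limma adjusted p of 0.0384. Card9 was at 467, 425 and 287 in the cKO replicates, against 166, 143 and 181 in the control replicates. Here too the groups did not overlap, with cKO replicate 3 nearest to the controls, and the log2 ratio was 1.24 ± 0.24 (SE, n = 3 per group) with a limma adjusted p of 0.0491. Exons of Gm13562 on the opposite strand cover 3.79% of Card9, and no source says that reads were counted by strand, so reads of the 2 genes cannot be told apart there. Pf4 lies on chromosome 5, 90772435 to 90773383, Fcer1g on chromosome 1, 171229572 to 171234365 and Card9 on chromosome 2, 26352176 to 26360918 (GRCm38).

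These calls rest on few animals. Pf4 passed without each control in turn, and its limma adjusted p was 0.114, 0.0811 and 0.167 without cKO replicates 1, 2 and 3. With 1 library left out, Fcer1g and Card9 passed only without control replicate 1. Without control replicates 2 and 3 their limma adjusted p values were 0.0633 and 0.0615 for Fcer1g, and 0.0887 and 0.0507 for Card9. Without cKO replicates 1, 2 and 3 they were 0.159, 0.2 and 0.161 for Fcer1g, and 0.189, 0.262 and 0.0925 for Card9. The count of members that passed as higher was therefore 0 without any 1 of the cKO animals, when 0.0117, 0.0176 and 0.00581% of all genes tested passed without cKO replicates 1, 2 and 3, and 13 to 16 members had an unadjusted limma p under 0.05. It was 4, 6 and 1 without control replicates 1, 2 and 3, when 0.685, 0.486 and 0.344% of all genes tested passed. DESeq2 on the recovered reads called 11 members higher (1.86% of genes), edgeR called Pf4 and Fcer1g (0.196%), and the authors' deposited table lists 9 at an adjusted p under 0.05 (0.883%).

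**Figure D2:**
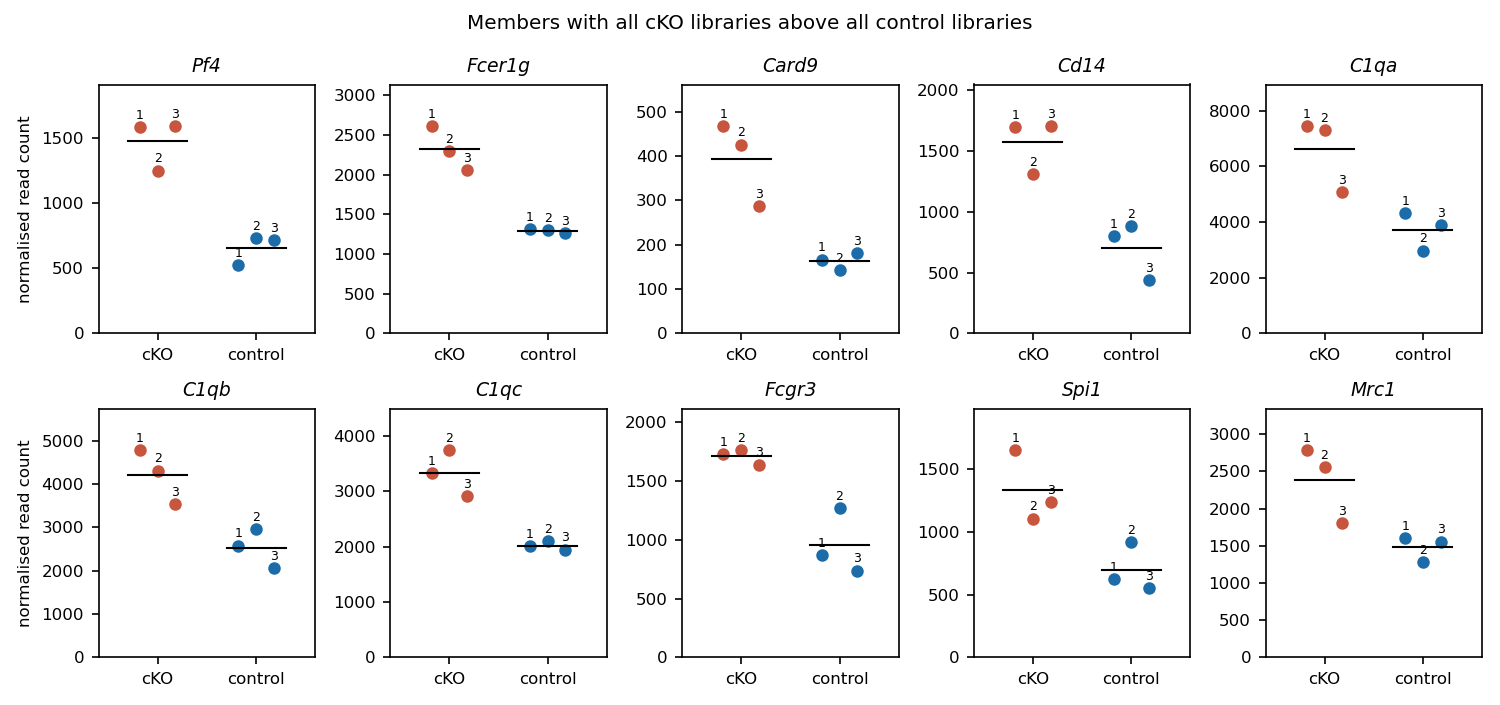
Normalised read count (y axis, from 0) of 10 macrophage genes in 3 cKO and 3 control libraries, numbered by replicate, with a bar at each group mean. The 10 were picked from the 15 members with all cKO libraries above all controls, so the separation in every panel follows from that choice. Among these panels the closest approach, as a ratio, is at Mrc1, where cKO replicate 3 is at 1801 and control replicate 1 at 1607. Ly86, not shown, came closer, with cKO replicate 3 at 483 and control replicate 1 at 480.4.

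The promoters of 5 of these separated genes are shown because the genes were higher together, and PU.1, which binds purine-rich sites with a core of GAGGAA, is the best known regulator of macrophage promoters. Capitals mark GAGGAA or its reverse complement in the 250 bases upstream of the RefSeq start (GRCm38.p6), read 5′ to 3′ in the direction of the gene.
Pf4 (chr5:90772185-90772434, plus strand): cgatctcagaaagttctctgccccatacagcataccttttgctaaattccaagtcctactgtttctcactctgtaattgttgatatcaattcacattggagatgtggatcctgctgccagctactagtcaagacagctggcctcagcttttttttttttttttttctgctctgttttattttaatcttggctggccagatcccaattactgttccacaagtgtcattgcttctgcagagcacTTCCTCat
Fcer1g (chr1:171234350-171234599, minus strand): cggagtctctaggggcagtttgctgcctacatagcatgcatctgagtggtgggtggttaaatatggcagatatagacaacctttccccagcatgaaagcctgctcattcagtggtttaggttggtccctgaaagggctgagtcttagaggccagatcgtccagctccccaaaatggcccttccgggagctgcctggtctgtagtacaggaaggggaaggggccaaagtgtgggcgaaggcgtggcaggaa
Card9 (chr2:26360910-26361159, minus strand): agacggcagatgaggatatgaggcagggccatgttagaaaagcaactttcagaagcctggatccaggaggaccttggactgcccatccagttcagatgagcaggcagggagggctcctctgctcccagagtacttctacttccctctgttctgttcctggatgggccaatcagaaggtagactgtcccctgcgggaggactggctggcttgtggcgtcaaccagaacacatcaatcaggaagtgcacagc
C1qb (chr4:136886201-136886450, minus strand): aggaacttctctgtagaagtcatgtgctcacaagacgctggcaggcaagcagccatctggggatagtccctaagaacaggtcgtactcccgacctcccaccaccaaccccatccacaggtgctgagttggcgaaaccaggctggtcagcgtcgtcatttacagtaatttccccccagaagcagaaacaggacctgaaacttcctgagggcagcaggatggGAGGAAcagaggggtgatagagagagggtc
C1qc (chr4:136892915-136893164, minus strand): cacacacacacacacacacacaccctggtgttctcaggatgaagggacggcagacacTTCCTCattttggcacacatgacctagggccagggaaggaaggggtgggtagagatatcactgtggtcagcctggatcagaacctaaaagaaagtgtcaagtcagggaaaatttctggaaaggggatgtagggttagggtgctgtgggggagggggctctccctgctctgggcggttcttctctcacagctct
Pf4 holds a match that begins 8 bases before the start, C1qb one at 30 bases and C1qc one at 193 bases, and the Fcer1g and Card9 windows hold none. RefSeq promoters were matched by symbol for 25 of the 35 members, and 13 of them (52%) hold the motif on either strand, against 23.3% of 32851 promoters. The 10 members with no entry used here were C1qa, Csf1r, Spi1, Adgre1, Lyve1, Maf, Cd14, Clec4n, Tyrobp and Cd74. CAGCTG, a form of the E-box that basic helix-loop-helix factors bind, was in 5 of the 25 (20%), against 13% of all promoters. It reads the same on both strands and can share only an end base with GAGGAA. For both motifs a member counted if any of its promoters matched, while the share over all was counted per promoter. A match is a run of letters and not a bound site.

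The 3 C1q chain genes, which together encode the recognition molecule of the classical complement pathway, had close fold changes. C1qa was at 7447, 7302 and 5076 in the cKO replicates, against 4327, 2970.3 and 3886 in the control replicates. C1qb was at 4789, 4312 and 3537 in the cKO replicates, against 2576, 2963 and 2062 in the control replicates. C1qc was at 3327, 3747 and 2913 in the cKO replicates, against 2011, 2099 and 1949 in the control replicates. In each of the 3, every cKO library was above every control, and the controls of C1qc differed from each other by little. The log2 ratios were 0.82 ± 0.22, 0.74 ± 0.19 and 0.71 ± 0.16 (SE, n = 3 per group), and none passed, at limma adjusted p values of 0.131, 0.13 and 0.0754. All 3 are called by DESeq2 and in the authors' deposited table, where their adjusted p values are 0.00992, 0.0202 and 0.00693. The genes are neighbours on chromosome 4, C1qa at 136895917 to 136898803, C1qc at 136889804 to 136893065 and C1qb at 136880129 to 136886187, all on the minus strand. Per kilobase of gene length, the level of C1qa was 1.63, 1.77 and 1.5 times that of C1qb in the cKO libraries, against 1.76, 1.05 and 1.97 times in the controls. C1qc was at 0.391, 0.490 and 0.464 times C1qb per kilobase in the cKO libraries, against 0.440, 0.399 and 0.533 times in the controls. The balance between the chains thus overlapped between the groups, with C1qa lowest relative to C1qb in control replicate 2.

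Of the 6 lineage and pan-macrophage genes, none passed by limma, 2 were higher at an unadjusted p under 0.05, and DESeq2 called 1. That gene, Spi1, which encodes PU.1, was at 1650.3, 1105 and 1234 in the cKO replicates, against 623, 917 and 553 in the control replicates. The highest control, replicate 2, lay below the lowest cKO library, and the log2 ratio was 0.94 ± 0.23 (SE, n = 3 per group; limma adjusted p = 0.106). Csf1r, the receptor on whose ligands macrophages depend, was at 3809, 3099 and 2859.5 in the cKO replicates, against 2459, 2624 and 1747 in the control replicates. Its groups came close without overlapping, with a log2 ratio of 0.53 ± 0.20 (SE, n = 3 per group; limma adjusted p = 0.29), and exons of Hmgxb3 on the opposite strand cover 16.4% of its own. The other 4 overlapped between the groups. Adgre1, which encodes the surface marker F4/80, was at 404, 249 and 239 in the cKO replicates, against 273, 605 and 222 in the control replicates, so its highest value was a control. Aif1, the calcium-binding protein IBA1, had a log2 ratio of 0.48 ± 0.34 (SE, n = 3 per group), and Laptm5, a lysosomal membrane protein of leukocytes, one of 0.22 ± 0.49. Cd68, a glycoprotein of macrophage lysosomes, had a 95% confidence interval of -1.01 to 2.91 on the log2 scale.

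Among the 9 genes of resident macrophages Pf4 rose and 8 did not pass. Mrc1, the mannose receptor, was at 2789, 2562 and 1801 in the cKO replicates, against 1607, 1277 and 1555 in the control replicates. The groups did not overlap, and the log2 ratio was 0.67 ± 0.20 (SE, n = 3 per group; limma adjusted p = 0.176). Ms4a7, a membrane protein of mature macrophages, was at 429, 401 and 453 in the cKO replicates, against 190.2, 329.8 and 156 in the control replicates. The 3 cKO libraries lay close together above the controls, and the log2 ratio was 1.00 ± 0.28 (SE, n = 3 per group; limma adjusted p = 0.151). Cd163, the receptor for haemoglobin bound to haptoglobin, was at 673, 664 and 478 in the cKO replicates, against 512, 288 and 497 in the control replicates, and control replicate 1 lay above cKO replicate 3. Lyve1, a hyaluronan receptor of perivascular macrophages, was at 597, 497 and 510.5 in the cKO replicates, against 552, 581 and 315 in the control replicates, with overlapping groups and a log2 ratio of 0.19 ± 0.25 (SE, n = 3 per group). Lymphatic endothelium also makes Lyve1, and its other genes took 0.0132 to 0.0184% of reads in cKO libraries and 0.0160 to 0.0233% in control libraries. Maf, a transcription factor of resident cells, and Mertk, a receptor for dying cells, had log2 ratios of 0.11 ± 0.21 and 0.087 ± 0.36, with 95% confidence intervals of -0.35 to 0.57 and -0.73 to 0.90. Folr2, a folate receptor, was low in every library at 53.9, 27.3 and 25.4 in cKO and 26.8, 38.6 and 46.3 in control libraries, and exons of Gm10602 on the opposite strand cover 63.1% of it. Opposite-strand exons of Gm15655 cover 5.34% of Maf.

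Of the 8 genes of monocyte-derived and inflammatory macrophages Card9 rose and 7 did not pass. Cd14, the co-receptor for bacterial lipopolysaccharide, was at 1697, 1309 and 1705 in the cKO replicates, against 797, 883 and 437 in the control replicates. Its lowest cKO library was well above its highest control, and the log2 ratio of 1.21 ± 0.26 (SE, n = 3 per group) was close to that of Card9, with a limma adjusted p of 0.0753. With 1 library left out, Cd14 passed only without control replicate 1, at a limma adjusted p of 0.0495. It was 0.0539 and 0.0557 without control replicates 2 and 3, and 0.243, 0.218 and 0.335 without cKO replicates 1, 2 and 3. Clec4n, which encodes the fungal receptor dectin-2 that signals through the products of Fcer1g and Card9, was at 423, 393 and 522 in the cKO replicates, against 224, 364 and 174 in the control replicates. The groups did not overlap, and its log2 ratio was 0.87 ± 0.28 (SE, n = 3 per group; limma adjusted p = 0.201). Itgam, the CD11b integrin chain, was at 940.4, 1081 and 969 in the cKO replicates, against 684, 577 and 693 in the control replicates, again without overlap. Its log2 ratio was 0.62 ± 0.16 (SE, n = 3 per group; limma adjusted p = 0.117), and exons of Gm49368 on the same strand cover 68.7% of Itgam, which counting by gene cannot separate. Ly86, a partner of a Toll-like receptor relative, was at 511, 646 and 483 in the cKO replicates, against 480.4, 374 and 287 in the control replicates, with control replicate 1 just below the lowest cKO library and a log2 ratio of 0.54 ± 0.23 (SE, n = 3 per group; limma adjusted p = 0.331). Lyz2, the lysozyme of myeloid cells and the most abundant of this class, was at 17376, 14554 and 26896 in the cKO replicates, against 5883, 22506 and 5587 in the control replicates. Control replicate 2 lay inside the cKO range and the other controls lay far below it, so the log2 ratio of 1.07 ± 0.56 (SE, n = 3 per group) had a limma adjusted p of 0.471. Lyz1, the lysozyme of Paneth cells in the intestine, was at 133, 67.3 and 154 in the cKO replicates, against 29.3, 485 and 80.1 in the control replicates. The transcripts of Lyz1 and Lyz2 are 95.8% identical over 1264 aligned bases, so the split of reads between them is uncertain.

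Of the 4 Fc receptor and adaptor genes Fcer1g rose and 3 did not pass. Fcgr3, a low-affinity receptor for immunoglobulin G that needs the Fcer1g product, was at 1729, 1765 and 1639.7 in the cKO replicates, against 868, 1269 and 739 in the control replicates. The cKO libraries were within a narrow range and above all controls, with a log2 ratio of 0.87 ± 0.21 (SE, n = 3 per group) and a limma adjusted p of 0.095. A stretch of 512 bases is 96.3% identical to the inhibitory receptor gene Fcgr2b, where reads are uncertain. Fcgr1, the high-affinity receptor, overlapped between the groups at 485, 424 and 282 in cKO and 346, 269 and 335 in control libraries. Tyrobp, which encodes the adaptor DAP12 that TREM2 signals through, was at 1452, 941 and 1405 in cKO and 659.6, 1709 and 433 in control libraries, with its highest value in control replicate 2.

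None of the 5 genes of the lysosome, lipid handling and antigen processing passed by limma, and the count at an unadjusted p under 0.05 and the DESeq2 count were both 0. Cd74, the invariant chain of class II antigen presentation, was at 10035, 11924 and 7653 in the cKO replicates, against 8499, 7617 and 6701 in the control replicates, and only control replicate 1 reached into the cKO range. The other 4, Gpnmb, Ctss, Trem2 and Apoe, spread widely among the controls.

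Control replicate 2 stood apart from the other controls in a set of members that includes Gpnmb, Ctss, Trem2 and Cd68. In 10 of the 35 its value was over 2 times that of each other control, against 3.67% of all genes tested, and in 10 it was the highest of all 6 libraries, against 18.7%. Gpnmb, a glycoprotein of lipid-laden macrophages, was at 4966, 2350.1 and 7196 in the cKO replicates, against 624, 24149 and 984 in the control replicates. That control was at 24.5 times the next one, while the other 2 controls were below all cKO libraries. Its log2 ratio was 0.83 by limma, which averages log values, and -0.83 by DESeq2, with a limma 95% confidence interval of -2.79 to 4.46. Ctss, a cysteine protease of antigen-presenting cells, was at 2418, 2629.9 and 4352 in the cKO replicates, against 919, 6261 and 895 in the control replicates. Trem2, a receptor for lipids and cell debris, was at 1625, 922 and 1383 in the cKO replicates, against 622, 2048 and 673 in the control replicates. In both, control replicate 2 was the highest library and control replicates 1 and 3 were the lowest, while the order among the others differed. Cd68 was at 1818, 818 and 2204 in the cKO replicates, against 562, 2321 and 351 in the control replicates, and Cybb, the catalytic chain of the phagocyte oxidase, was at 1227, 702 and 1086 in the cKO replicates, against 496, 1983 and 472 in the control replicates. Within the cKO group, replicate 2 was the lowest in Gpnmb, Cd68, Trem2, Cybb and Tyrobp. Lyz1, Lyz2, Tyrobp, Mertk and Adgre1 were the other 5 in which control replicate 2 exceeded each other control over 2 times.

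**Figure D3:**
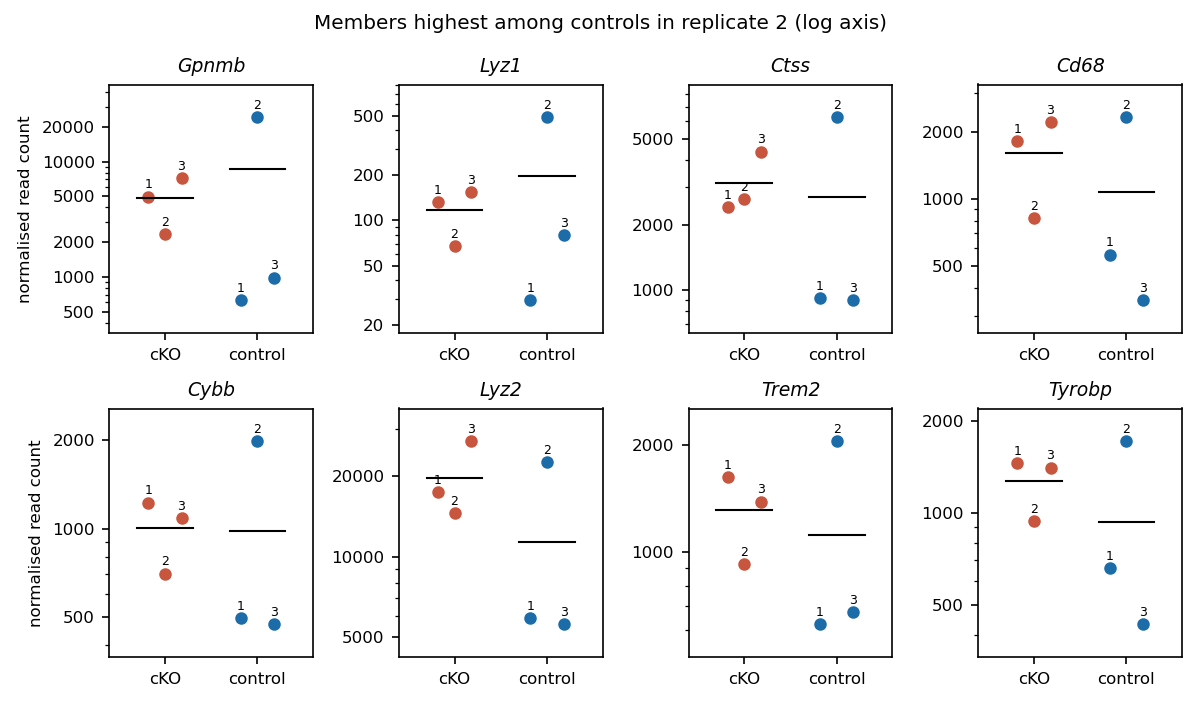
Normalised read count (y axis, log scale) of 8 macrophage genes in 3 cKO and 3 control libraries, numbered by replicate, with a bar at each group mean. Control replicate 2 is the highest control in every panel, from 2.59 times the next control in Tyrobp to 24.5 times in Gpnmb.

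Other lysosomal genes had the same high library. Of 16 genes of lysosomal enzymes and membrane proteins, 13 were highest in control replicate 2, and their summed share was 0.724, 0.617 and 0.761% of reads in cKO replicates 1 to 3, against 0.422, 1.14 and 0.565% in control replicates 1 to 3. Limma called none of the 16, 1 was higher at an unadjusted p under 0.05 and DESeq2 called none. That gene, Cd63, which encodes a lysosomal tetraspanin, had a log2 ratio of 0.43 ± 0.19 (SE, n = 3 per group). Osteoclast genes, which multinucleated macrophages share, took 0.0116, 0.00623 and 0.0111% of reads in cKO replicates 1 to 3, against 0.00627, 0.0188 and 0.00358% in control replicates 1 to 3, with Atp6v0d2 at 748, 308 and 781 in cKO and 107, 1666 and 203 in control libraries. Itgax, the CD11c integrin chain of dendritic cells and lipid-laden macrophages, was at 1199.6, 701 and 1249 in cKO and 212, 2588 and 259.8 in control libraries. Vil1, a gene of the intestinal epithelium, was at 192 in control replicate 2 and at no more than 8.53 elsewhere. Melanocytes also express Gpnmb. Of 5 melanocyte genes, Tyr, Dct and Tyrp1 were at 0 in control replicate 2, and 1 to 3 were at 0 in each other library. The 5 together took 0.000217, 0.0000937 and 0.000144% of reads in cKO replicates 1 to 3. In control replicates 1 to 3 they took 0.000213, 0.000209 and 0.000344%. The part of melanocytes in the Gpnmb values was not tested.

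Control replicate 2 was set aside after its values were seen, so counts without it are a description. The limma test then called 6 members higher, against 0.486% of all genes tested, namely Pf4, Spi1, Fcgr3, Ms4a7, Lyz2 and Ctss. The log2 ratio of Ctss was 1.74 with a limma adjusted p of 0.0235, and that of Lyz2 was 1.72 with 0.0261. Those of Spi1, Fcgr3 and Ms4a7 were 1.16, 1.09 and 1.31, with limma adjusted p values of 0.0456, 0.0238 and 0.0317. In 23 members all cKO libraries were then above both remaining controls, against 15.3% of all genes tested. Fewer controls make separation easier for any gene, and the 8 members that joined were ones in which this control was over 2 times each other control, so the gain follows from the choice. The count was 18 without control replicate 1 (17.1% of all genes tested) and 15 without control replicate 3 (14.8%). The median log2 ratio over the 35 was 0.74 without control replicate 2, against 0.62 with all libraries.

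Control replicate 1 stood apart in Apoe and Timd4. Apoe, the lipid carrier made by macrophages and by liver, was at 42663, 34251 and 38760.5 in the cKO replicates, against 108593, 24440.0 and 19635 in the control replicates. With the first control set aside, all cKO libraries were above both others, and the log2 ratio was 0.81 with a limma adjusted p of 0.0642, against 0.040 and 0.985 with all libraries. Such a separation was then seen in 17.1% of all genes tested. This control was set aside after its values were seen, and it held the highest Apoe, so values without it are a description. Timd4, a phosphatidylserine receptor of resident macrophages in liver and peritoneum, was at 17.7, 28.3 and 13.3 in the cKO replicates, against 71.9, 6.29 and 5.34 in the control replicates. Its log2 ratio was 1.54 without that control, with a limma adjusted p of 0.357. Clec4f, which marks the Kupffer cells of the liver, was at 0, 0 and 0 in the cKO replicates, against 1413, 0 and 1.78 in the control replicates. Cd5l, another gene of Kupffer cells, was at 18.6, 21.5 and 33.1 in the cKO replicates, against 256, 8.99 and 8.90 in the control replicates, and the albumin gene Alb was at 0, 673 and 86.2 in the cKO replicates, against 146402, 178 and 602 in the control replicates. The same library thus held the highest Apoe, Timd4, Clec4f, Cd5l and Alb. Clec4f and Cd5l come from a list of 7 Kupffer cell genes, which also holds Cdh5, a gene listed for blood endothelium as well. The 7 together took 0.0180, 0.0203 and 0.0159% of reads in cKO replicates 1 to 3. In control replicates 1 to 3 they took 0.0259, 0.0139 and 0.0184%. Limma and DESeq2 called none of the 6 tested, and 2 had a positive log2 ratio. Control replicate 1 was the highest of the 6 libraries in 3 of the 35 members, against 21.3% of all genes tested.

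**Figure D4:**
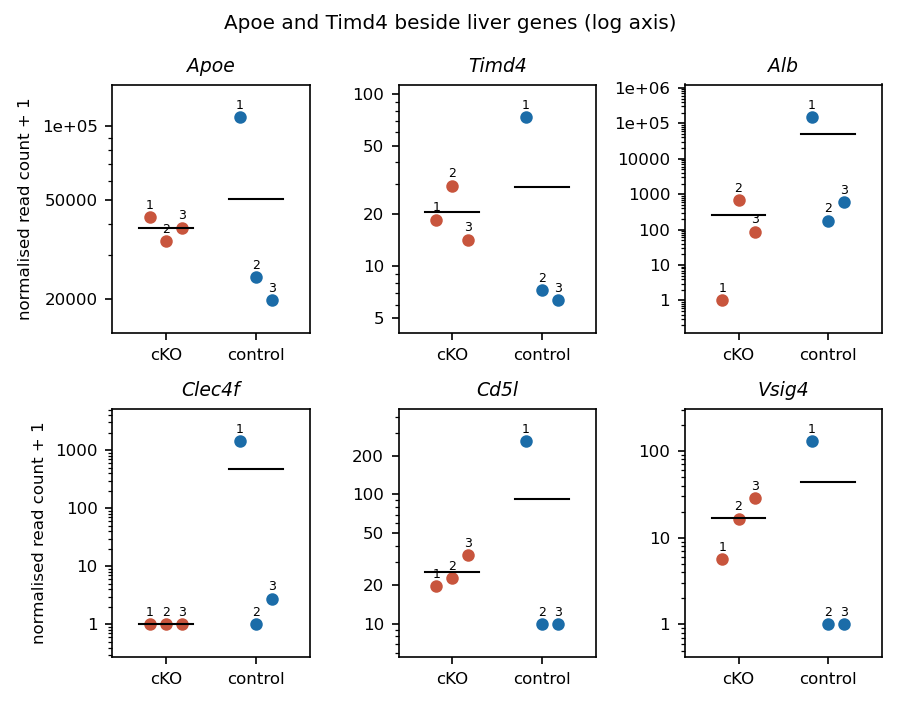
Normalised read count plus 1 (y axis, log scale) of Apoe and Timd4 beside the hepatocyte gene Alb and the Kupffer cell genes Clec4f, Cd5l and Vsig4 in 3 cKO and 3 control libraries, numbered by replicate, with a bar at each group mean. Control replicate 1 is the highest library in all 6 panels, and Clec4f is at 0 in all 3 cKO libraries.

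Resident and inflammatory members each held genes that separated the groups and genes that did not, and the gap between their medians depended on single libraries. The median log2 ratio was 0.40 over the 9 resident genes, with a range of -0.12 to 1.17. Over the 8 monocyte-derived and inflammatory genes it was 0.74, with a range of 0.081 to 1.24. All 3 cKO libraries were above all controls in 3 of the 9 resident genes and in 5 of the 8 inflammatory ones. Such a separation was seen in 9.04% of all genes tested, and the difference between these classes was not tested. The resident median is the value of Timd4, a gene of few reads that was highest in control replicate 1. Without control replicates 1, 2 and 3 the resident median was 0.66, 0.35 and 0.055, and the inflammatory median was 0.74, 1.15 and 0.65. Without cKO replicates 1, 2 and 3 the resident median was 0.43, 0.24 and 0.64, and the inflammatory median was 0.78, 0.76 and 0.69. The inflammatory median was thus the higher in each of these fits, by little without control replicate 1 or cKO replicate 3. By DESeq2 the medians were 0.15 for resident and 0.70 for inflammatory genes. Each class had 1 gene that rose. The medians of the C1q, lineage, Fc receptor and lysosome classes were 0.74, 0.51, 0.75 and 0.42.

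**Figure D5:**
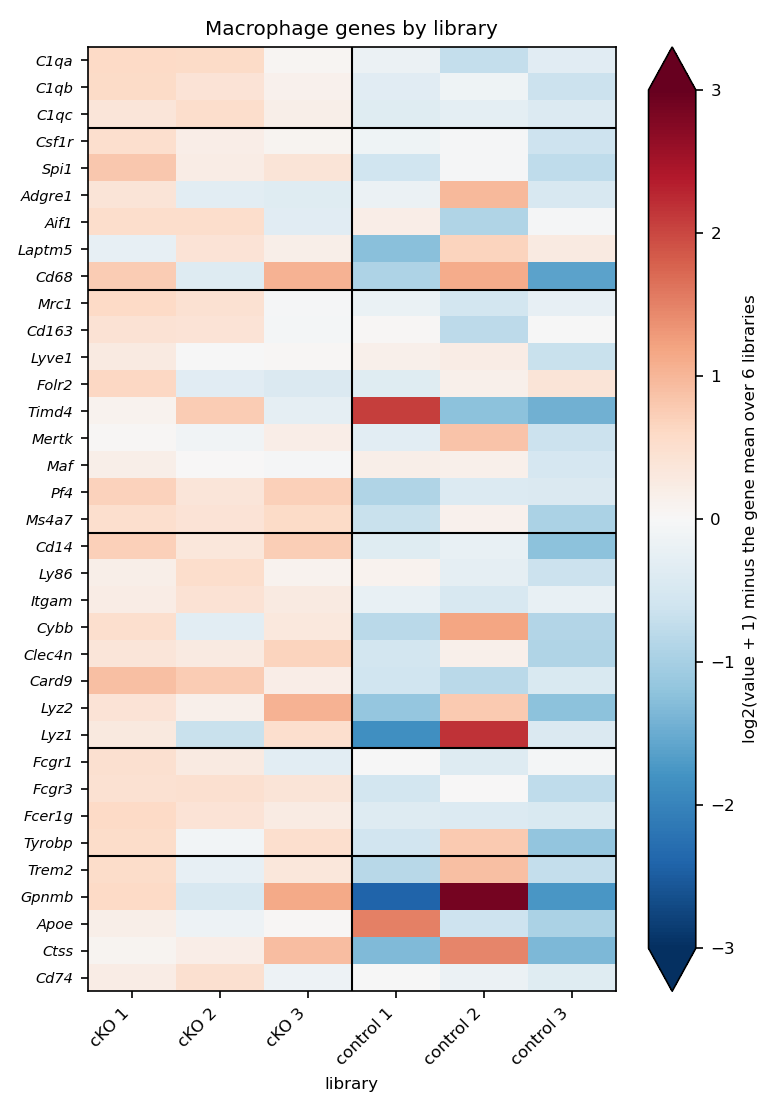
Deviation of log2(value + 1) from the mean of each gene over 6 libraries (colour), for 35 macrophage genes by class (rows, parted by lines) in 3 cKO and 3 control libraries (columns). Red is above and blue below the mean, and the red cells of control replicate 2 are deepest at Gpnmb and Lyz1, while control replicate 1 is red at Timd4 and Apoe. The colour scale ends at 3 and -3.

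Per kilobase of gene length, Apoe, Lyz2, Cd74, C1qa and C1qb were the 5 most abundant members in both groups, in that order. Their mean normalised counts per kilobase were 18035, 14900.2, 7000.4, 6354 and 3872 in cKO libraries, against 23802, 8606, 5394, 3584 and 2329 in controls. The control level of Apoe rests on control replicate 1. Without it, Lyz2 at 10674 and Apoe at 10308 per kilobase change places in the controls, and Ctss at 2635 passes C1qb at 2309. Folr2 and Timd4 were lowest in both groups. Card9 ranked 26 in cKO and 32 in control libraries, so the largest fold change among the members belonged to a gene of low abundance.

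Other genes of the pathways these members serve were looked up in lists. The ligands and receptors of the CSF1 and CSF2 axis held 5 tested genes, of which limma called none, 2 were higher at an unadjusted p under 0.05 and DESeq2 called none. Csf1, the main macrophage growth factor, had the smallest p and was at 1499, 1434 and 1335 in the cKO replicates, against 1278, 840.3 and 933 in the control replicates. Its cKO libraries were above all controls, and the log2 ratio was 0.51 ± 0.18 (SE, n = 3 per group; limma adjusted p = 0.267). Of 15 tested partners of Card9 limma called none, 3 were higher at an unadjusted p under 0.05, DESeq2 called none and 14 had a positive log2 ratio. Clec4e, the lectin receptor mincle, led them at 225, 171 and 219 in cKO and 61.0, 166 and 41.8 in control libraries, without overlap. Of 12 genes of immunoreceptor adaptor signalling limma called none, 3 were higher at an unadjusted p under 0.05 and DESeq2 called 1. Ptpn6, the phosphatase SHP-1 that restrains such receptors, was at 704, 591 and 586 in cKO and 388, 429.6 and 336 in control libraries, a log2 ratio of 0.71 ± 0.18 with a limma adjusted p of 0.112.

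All 16 tested genes of inflammatory mediators and sensors had a positive log2 ratio, but limma called none of them. At an unadjusted p under 0.05, 7 were higher, and DESeq2 called 1. The cytokine gene Il6 was at 28.8, 64.4 and 47.5 in the cKO replicates, against 4.88, 5.39 and 14.2 in the control replicates. Its groups did not overlap, with a log2 ratio of 2.46 ± 0.64 (SE, n = 3 per group) and a limma adjusted p of 0.128. The 7 genes with an unadjusted p under 0.05, which were Il6, Tlr2, Il1b, Nlrp3, Tnf, Nos2 and Irf8, were also the 7 whose cKO libraries all lay above the controls. Over all genes tested, 6.11% were higher at that p and 9.04% were separated in that way. The summed share of the list overlapped, at 0.0250 to 0.0267% of reads in cKO and 0.0159 to 0.0263% in control libraries. Of its 18 genes, 6 were highest in control replicate 2. Among 13 genes of alternative activation and scavenging, limma called none, 3 were higher at an unadjusted p under 0.05, and DESeq2 called 1. Cd209f, a lectin of resident macrophages, was at 121, 277 and 90.6 in cKO and 57.3, 70.1 and 34.7 in control libraries, with a log2 ratio of 1.46 ± 0.47 and a limma adjusted p of 0.199. Of 9 complement partners limma and DESeq2 called none and 2 were higher at an unadjusted p under 0.05. The receptor gene C5ar1 was at 587, 598 and 580.1 in cKO and 335, 377 and 437 in control libraries, a log2 ratio of 0.63 ± 0.17 with a limma adjusted p of 0.143. Of 14 other transcription factors of macrophages limma called none, 2 were higher at an unadjusted p under 0.05 and DESeq2 called 1, and Runx1 led at 606, 825 and 800.0 in cKO and 472, 384 and 507 in control libraries (limma adjusted p = 0.143). Of 8 genes for the uptake of dying cells limma called none, 1 was lower at an unadjusted p under 0.05, DESeq2 called 1 lower, and 2 had a positive log2 ratio. The integrin gene Itgav had the smallest p there, with a log2 ratio of -0.47 ± 0.18 (SE, n = 3 per group; limma adjusted p = 0.286).

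Markers of other leukocytes were measured beside the macrophage genes. Of 10 pan-leukocyte genes, which include Laptm5 itself, 1 rose, 9 did not pass and all 10 had a positive log2 ratio. It was Coro1a, an actin-binding protein of leukocytes, at 1937, 2261 and 1882 in the cKO replicates, against 1086, 1054 and 1211 in the control replicates, with a log2 ratio of 0.86 ± 0.15 (SE, n = 3 per group) and a limma adjusted p of 0.0365. Ptprc, the general leukocyte antigen CD45, overlapped between the groups at 1075, 715 and 846 in cKO and 490.1, 1140.5 and 453 in control libraries. The summed pan-leukocyte share was 0.0730, 0.0742 and 0.0750% of reads in cKO replicates 1 to 3, against 0.0299, 0.0982 and 0.0531% in control replicates 1 to 3, so the first control was lowest and the second highest. Of 10 monocyte genes limma called none, 2 were higher and 1 lower at an unadjusted p under 0.05, and DESeq2 called 1 lower. A positive log2 ratio was found in 8 of the 10, with a median of 0.27 over the list. In 1 gene all cKO libraries were above all controls, and in 1 all were below. Plac8, which circulating monocytes express, was at 413, 335 and 515 in cKO and 1011, 1027 and 597 in control libraries, below the controls in every cKO library, and Ccr2, the receptor by which monocytes leave blood, was at 1280.4, 732 and 514 in cKO and 622, 569.8 and 641 in control libraries. Of 7 tested neutrophil genes limma called none, 1 was higher at an unadjusted p under 0.05 and DESeq2 called 1, and Csf3r was at 785, 476 and 685 in cKO and 395, 257 and 309 in control libraries. Of these 7 genes, 6 had a positive log2 ratio, and the median was 0.89. Neutrophils also carry Cd14, Fcer1g and Itgam, and the summed share of their 12 marker genes was 0.00815 to 0.0193% of reads in cKO libraries and 0.00789 to 0.0222% in control libraries. Genes of T cells took 0.00176 to 0.00197% of reads in cKO libraries and 0.00128 to 0.00171% in control libraries, and those of B and plasma cells 0.00114 to 0.00139% of reads in cKO libraries and 0.00129 to 0.00206% in control libraries. The T cell share was higher in every cKO library than in any control, but the nearest libraries were at 0.00176 and 0.00171%. Of the 7 tested T cell genes limma and DESeq2 called 0, and 0 had an unadjusted limma p under 0.05. The B cell and neutrophil shares overlapped. Dendritic cell genes took 0.00873 to 0.0112% of reads in cKO libraries and 0.00407 to 0.0208% in control libraries, NK cell genes 0.000336 to 0.000612% of reads in cKO libraries and 0.000492 to 0.000548% in control libraries, mast cell genes 0.00279 to 0.00426% of reads in cKO libraries and 0.00193 to 0.0104% in control libraries and eosinophil genes 0.0000937 to 0.000277% of reads in cKO libraries and 0.000102 to 0.000523% in control libraries. The shares of these 4 cell types overlapped between the groups. Genes of red blood cells took 0.00721 to 0.0134% of reads in cKO libraries and 0.00558 to 0.00708% in control libraries. Their share was thus higher in every cKO library than in any control. Of the 5 tested, limma and DESeq2 called 0, 1 was higher at an unadjusted p under 0.05 and all 5 had a positive log2 ratio. The part these cells play in the macrophage values was not tested.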

How the data were processed

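RNA-seq was made from 3 cKO and 3 control uteri. Reads were processed with HISAT2, SAMtools and featureCounts, per the submitters' processing notes, which give no version here and name GRCm39. Coordinates in the deposited table equal those of GRCm38 (GENCODE vM21) for 25257 of 26006 genes found there, so positions are given on GRCm38. The sources used here do not say how strand and reads with several hits were handled.

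The authors deposited a normalised signal, counts divided by 1 size factor per library. Every value came out as whole reads within 0.01 after undoing the division. The authors also deposited log2 fold changes and p-values, used here only where named.

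Genes were filtered on recovered reads (filterByExpr), and log2(value + 1) was tested with limma 3.58.1 (trend, robust), unpaired, adjusted by Benjamini-Hochberg over 16314 genes, with 95% confidence intervals. Fold changes are on the log2(value + 1) scale, which understates low genes. DESeq2 1.42.0 and edgeR 4.0.16 on recovered reads, other scalings, filters, pseudocounts and left-out libraries were alternatives. The fit was tested on simulated data. Library totals of 14584450 to 16579573 reads set the precision. A count of 0 allows up to 3 reads (counting error only).

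Members and lists were chosen with earlier results of these data known. Values in every sample are given for members called, members with an unadjusted p under 0.05 and the most abundant member of each class. Of each other list the called gene or the gene with the smallest p is named. Gpnmb, Ctss, Trem2, Cd68, Cybb, Tyrobp, Lyz1, Timd4, Adgre1 and the other genes given beside them were named after their values were seen.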

Additional observations from a re-analysis of the deposited data

How the results depend on the processing

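The median log2 fold change of the 35 members stayed positive in every setting tried, between 0.38 and 0.74 when 1 library was left out. Counts of calls moved. By limma 45 genes were higher and 145 lower, and 3 members higher. DESeq2 called 283 genes higher and 583 lower, with 11 members. Limma-voom called 20 and 81, with 1 member. No filter on low reads gave 82 genes higher. Limma without the variance trend and robust step called 0 higher and 56 lower, with 0 members (13 at an unadjusted p under 0.05). At an adjusted p under 0.01, limma called 3 and 54 genes and 0 members, and under 0.1 it called 121 and 253 genes and 6 members. Leaving out 1 library gave 1 to 117 genes higher, 42 to 347 lower and 0 to 6 members higher. The cause of these shifts was not tested, but each left-out library also removes 1 of 6 samples.

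The labels do not say that replicate numbers pair the samples. Deviations of same-numbered libraries correlated at 0.0084, -0.176 and 0.044, and those of other pairs ran from -0.121 to 0.0985. With 3 libraries per group such correlations cannot settle whether samples were paired. With the replicate number as a block, limma called 34 genes higher, 149 lower and 1 member, Pf4.

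No called member changed sign. Signs turned for uncalled members. DESeq2 gave -0.48 for Timd4, -0.060 for Mertk, -0.75 for Lyz1, -0.83 for Gpnmb and -0.40 for Apoe, edgeR gave -0.47, -0.060, -0.75, -0.83 and -0.40, and limma-voom gave -0.072 for Lyz1. Without 1 library at a time, log2 fold changes ran from -0.82 to 1.18 for Lyz1, -0.42 to 0.81 for Apoe, -0.45 to 0.077 for Folr2, -0.36 to 0.61 for Laptm5, -0.22 to 0.53 for Mertk, -0.16 to 2.48 for Gpnmb, -0.49 to 0.23 for Adgre1, -0.22 to 1.54 for Timd4, -0.087 to 0.35 for Lyve1, -0.11 to 0.23 for Maf and -0.021 to 1.01 for Cybb.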
